A study of Mus musculus with 6 samples.

Results

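Mast cell progenitors (MCPs) of the embryonic mouse limb were compared over 3 days, between the embryonic stages E11.5 and E14.5 (days after conception). Each age was represented by 1 bulk RNA-seq library, and these were 2 of the 6 libraries of the series. Both libraries came from embryos of a C57BL/6xFVB background carrying Csf1r-iCre, a Cre recombinase driven by Csf1r, which was used to trace the descendants of erythro-myeloid progenitors (EMPs). The sample descriptions call these EMPs early, while the title of the series names late EMPs. The labels call both libraries limb MCPs and give no other allele, no treatment, no surface gate and no number of embryos per sample. The other 4 libraries were liver EMPs, liver MCPs and liver macrophages, all of stage E11.5, and skin cells at E16.5, which the labels title MCPs and describe as mast cells. The members were all genes with an FPKM of 10 or more in either limb library, which was the case for 2970 of the 17909 genes of the table. FPKM counts the fragments of a gene per kilobase of transcript and relative to all mapped fragments of the library, so levels may be compared between genes. With 1 library per age no replicate check, p-value or standard error could be had, so every difference describes these libraries and not the ages in general.

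Mast cells are tissue-resident cells of connective tissue and mucosa that store proteases, histamine and the charged proteoglycan serglycin in secretory granules. They depend on stem cell factor, which signals through the receptor Kit, and release their granules when antigen binds IgE on the high-affinity IgE receptor. Their precursors enter tissues as sparsely granulated cells and fill their granules there. EMPs are transient embryonic progenitors, formed in the yolk sac, that give rise to red cells, megakaryocytes, macrophages, granulocytes and mast cells.

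The 2 limb libraries held similar numbers of detected genes, with 8560 genes at an FPKM of at least 1 at E11.5 and 8554 at E14.5. Depth, estimated from the step size of the deposited values, was 8750000 mapped fragments at E11.5 and 11450000 at E14.5. A single fragment on a transcript of 2 kb was thus worth an FPKM of 0.0571 and 0.0437. Kit, Itgb7, Cd34 and Csf1r were read beside the label. The labels give no surface gate, and a gene used for sorting would match the label by selection. These values therefore do not test the label. Kit read 155 FPKM at E11.5 against 284 at E14.5, and Itgb7, the integrin beta 7 chain that mast cell progenitors use to enter tissue, read 18.5 and 16.4. Cd34, a surface protein of progenitors, stood at 55.1 and 54.6. Csf1r, the macrophage colony-stimulating factor receptor, read 0.50 at E11.5 and was listed at 0 at E14.5.

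Differences were taken as log2(FPKM + 1) at E14.5 minus E11.5, so a positive value means a higher level at the later age. Most genes differed little. In bulk RNA, a change in the number of cells of a type and a change in RNA per cell cannot be told apart, and this holds for every difference given here. The median difference over the 2970 genes was 0.10, the 5th to 95th percentile ran from -1.12 to 1.30, and 85.4% of the genes lay within 2-fold. At least 4-fold higher at E14.5 were 71 genes (2.39% of those past the filter), and at least 4-fold lower were 52 (1.75%). At 2-fold the counts were 250 higher (8.42%) and 185 lower (6.23%), and these shares are the background for the gene lists that follow. After median-of-ratios scaling, which lowered the differences by 0.06, the 4-fold counts over 2964 genes were 67 (2.26%) and 54 (1.82%), and the 2-fold counts 222 (7.49%) and 200 (6.75%). The excess of higher over lower genes at 2-fold depended on scaling, with 179 higher and 189 lower after scaling over all 6 libraries. A gene that reaches 10 FPKM at 1 age alone is more likely to differ, and 2136 of the 2970 genes did so at both ages. Just inside the 4-fold limit the smallest difference was 2.02, and just outside it the largest was 1.99.

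The 15 largest higher values belonged to mast cell proteases (Tpsb2, Tpsab1, Mcpt4, Prss34, Cma1, Mcpt2), genes induced by stimulation (Nr4a1, Tnfaip3, Egr3, Fosb), the cytokine gene Osm, the lectin receptor gene Clec12b, the myelin protein gene Pmp22 and the collagen genes Col1a1 and Col1a2. Among the 15 largest lower values were granule genes of neutrophils and eosinophils (Mpo, Elane, Prg2, Ear6, Epx), S100a8, S100a9, Lyz2, Ifitm1, Cd24a and the apolipoprotein genes Apoe and Apoc1. Clec12b, an inhibitory receptor, read 1.68 FPKM at E11.5 against 70.2 at E14.5, and Pmp22 was listed at 0 and then read 16.4. Perp, Paxbp1 and Evl, an actin regulator gene (31.9 and 1.62 FPKM), completed the lower set.

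**Figure D1:**
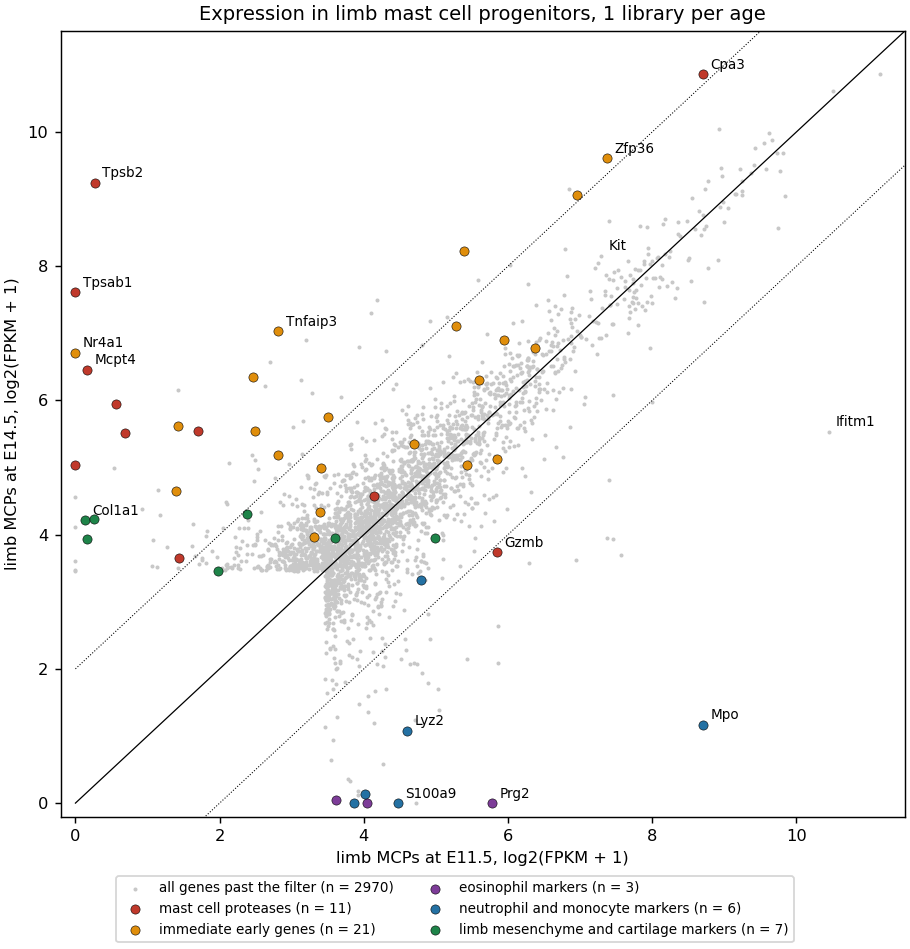
Each point is 1 of the 2970 genes past the filter, with log2(FPKM + 1) in limb MCPs at E11.5 on the horizontal axis and at E14.5 on the vertical axis. Colours mark 5 gene lists, the solid line marks equal values and the dotted lines a difference of 2 (4-fold). Of the 11 mast cell proteases 9 lie above the upper line, from Tpsab1 and Cma1, listed at 0 at E11.5, to Cpa3 (417 FPKM), while neutrophil and eosinophil genes such as Mpo and Prg2 lie below the lower line.

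Granule proteases were the mast cell genes that differed most between the 2 ages. Of 16 listed proteases 11 passed the filter, 9 of these were at least 4-fold higher at E14.5, 1 was at least 4-fold lower, and the median difference was 4.82 against 0.10 over all genes. Members that are high only at the later age pass the filter through that age, and just 3 of the 11 reached an FPKM of 10 in both libraries. Over these 3, Cpa3, Ctsc and Gzmb, the median difference was 0.44. Summed over the list, the FPKM was 500 at E11.5 and 2978 at E14.5. The gains covered each protease class of mast cells: carboxypeptidase, tryptases and chymases.

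Cpa3, the mast cell carboxypeptidase, was already abundant at E11.5 with 417 FPKM and read 1856 at E14.5, a 4.45-fold higher level (difference 2.15). Its share of the FPKM sum went from 0.298% to 1.24%. The tryptases, trypsin-like serine proteases stored on heparin, started from almost nothing. Tpsb2, which encodes mast cell protease 6, read 0.21 FPKM at E11.5 and 605 at E14.5, a difference of 8.97 and the largest of all genes. Its value at E11.5 corresponds to about 2 fragments, so the 2883-fold ratio has a 95% counting interval from 908 to 27100. Tpsab1, which encodes mast cell protease 7, was listed at 0 at E11.5 and read 195 FPKM at E14.5. Tpsg1, the membrane-anchored gamma tryptase, read 2.26 and 45.7 FPKM, a 20.2-fold higher level. Prss34, the serine protease mMCP-11, which is also made by basophils, read 0.48 and 60.4 FPKM, a 126-fold ratio with a counting interval from 52.8 to 382.

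All 4 genes lie within a short stretch of chromosome 17 (GRCm38), with Prss34 at 25298394-25300165, Tpsab1 at 25343245-25345562, Tpsb2 at 25366305-25369098 and Tpsg1 at 25369273-25374442. Prss28 and Prss29 sit between Prss34 and Tpsab1 and were not part of the gain: Prss28 read 0.39 FPKM at E11.5 and was listed at 0 at E14.5, and Prss29 read 0.10 and was listed at 0. None of these 4 transcripts shares a stretch of 50 bases with another of the 4, and other genes were not compared.

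Chymases and related granule proteases form a second cluster on chromosome 14. Mcpt4, the main chymase of connective tissue mast cells, read 0.12 FPKM at E11.5 and 86.8 at E14.5, a 723-fold ratio whose counting interval is wide (144 to 31753). Cma1, known as mast cell protease 5, was listed at 0 and then read 31.9 FPKM. Mcpt2 and Mcpt1, which are known from mucosal mast cells, were higher too. Mcpt2 read 0.61 and 44.5 FPKM (72.9-fold, interval 33.5 to 243). Mcpt1 read 1.71 and 11.6 FPKM (6.76-fold). On GRCm38 Cma1 spans 55941451-55944675, Mcpt1 56017971-56020384, Mcpt2 56042041-56044642 and Mcpt4 56059629-56062313. Mcpt4 shares 5.48% of its 50-base windows with another gene of the cluster, Cma2, which read 0.52 FPKM at E14.5.

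Not every protease followed. Gzmb, granzyme B, which lies in the same region of chromosome 14, was the single member that fell: it read 56.4 FPKM at E11.5 and 12.3 at E14.5, a 4.57-fold lower level. Ctsc, the cathepsin that trims granule proteases to their active form, read 16.7 and 22.9 FPKM and stayed within 2-fold. Mcpt8, a basophil protease, read 4.09 and 4.79 FPKM. Ctsg, cathepsin G, read 0.59 and 0.18 FPKM, while Mcpt9 and Gzmc were listed at 0 at both ages. The chymases that gained and the granzyme that fell thus lie in 1 gene cluster.

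The promoters of these proteases are shown because genes of the list moved together and in opposite directions within 1 cluster. Each sequence holds the 250 bases before the annotated start, 5′ to 3′ on the strand of the gene, from RefSeq on GRCm38.p6. Capitals mark each match of a GATA motif, searched as AGATAA on both strands with T allowed as its first base and G as its last, a choice that was widened after the sequences had been seen.
Cpa3: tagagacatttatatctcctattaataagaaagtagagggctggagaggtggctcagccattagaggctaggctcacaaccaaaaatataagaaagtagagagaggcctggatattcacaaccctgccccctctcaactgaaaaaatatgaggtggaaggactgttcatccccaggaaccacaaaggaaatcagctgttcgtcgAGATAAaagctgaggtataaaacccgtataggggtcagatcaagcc
Cma1: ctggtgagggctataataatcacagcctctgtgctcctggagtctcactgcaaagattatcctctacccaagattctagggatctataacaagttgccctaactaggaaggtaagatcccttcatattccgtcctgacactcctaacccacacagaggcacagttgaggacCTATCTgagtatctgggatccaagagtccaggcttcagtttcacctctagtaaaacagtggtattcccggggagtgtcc
Mcpt4: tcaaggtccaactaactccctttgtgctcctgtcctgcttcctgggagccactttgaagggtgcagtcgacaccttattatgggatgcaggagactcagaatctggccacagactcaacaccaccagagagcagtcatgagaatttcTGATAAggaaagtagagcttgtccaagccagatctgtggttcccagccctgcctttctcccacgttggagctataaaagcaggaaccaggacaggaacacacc
Prss34: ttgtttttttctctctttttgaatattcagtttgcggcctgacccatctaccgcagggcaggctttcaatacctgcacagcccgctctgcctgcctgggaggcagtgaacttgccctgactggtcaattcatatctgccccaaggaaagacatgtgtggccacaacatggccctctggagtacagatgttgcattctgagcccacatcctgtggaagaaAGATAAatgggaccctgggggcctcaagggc
Gzmb: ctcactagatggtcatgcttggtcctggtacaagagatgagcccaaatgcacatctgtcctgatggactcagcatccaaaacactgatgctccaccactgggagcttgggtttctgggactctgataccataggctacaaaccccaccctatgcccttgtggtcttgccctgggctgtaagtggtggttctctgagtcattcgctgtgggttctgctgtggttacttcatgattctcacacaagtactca
These windows are Cpa3 at chr3:20242182-20242431 (minus strand), Cma1 at chr14:55944676-55944925 (minus), Mcpt4 at chr14:56062311-56062560 (minus), Prss34 at chr17:25298144-25298393 (plus) and Gzmb at chr14:56262335-56262584 (minus). The capitals begin 46 bases before the start in Cpa3, 79 in Cma1, 103 in Mcpt4 and 31 in Prss34, and in Cma1 they lie on the opposite strand. In Gzmb no match was found in this window. Of the 11 proteases past the filter 8 were matched in the promoter table, and 6 of the 8 (75%) held the motif: Cpa3, Cma1, Mcpt1, Mcpt4, Tpsg1 and Prss34. Tpsb2, Tpsab1 and Mcpt2 were not matched. Among all 32851 promoters of that length 8718 (26.5%) held it. Since the motif was widened with these promoters in view, the shares are not an independent comparison. The E-box CATGTG, also read on both strands, was present in 1 of the 8 and in 12.3% of all promoters. A match describes the letters only, and binding was not measured.

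**Figure D2:**
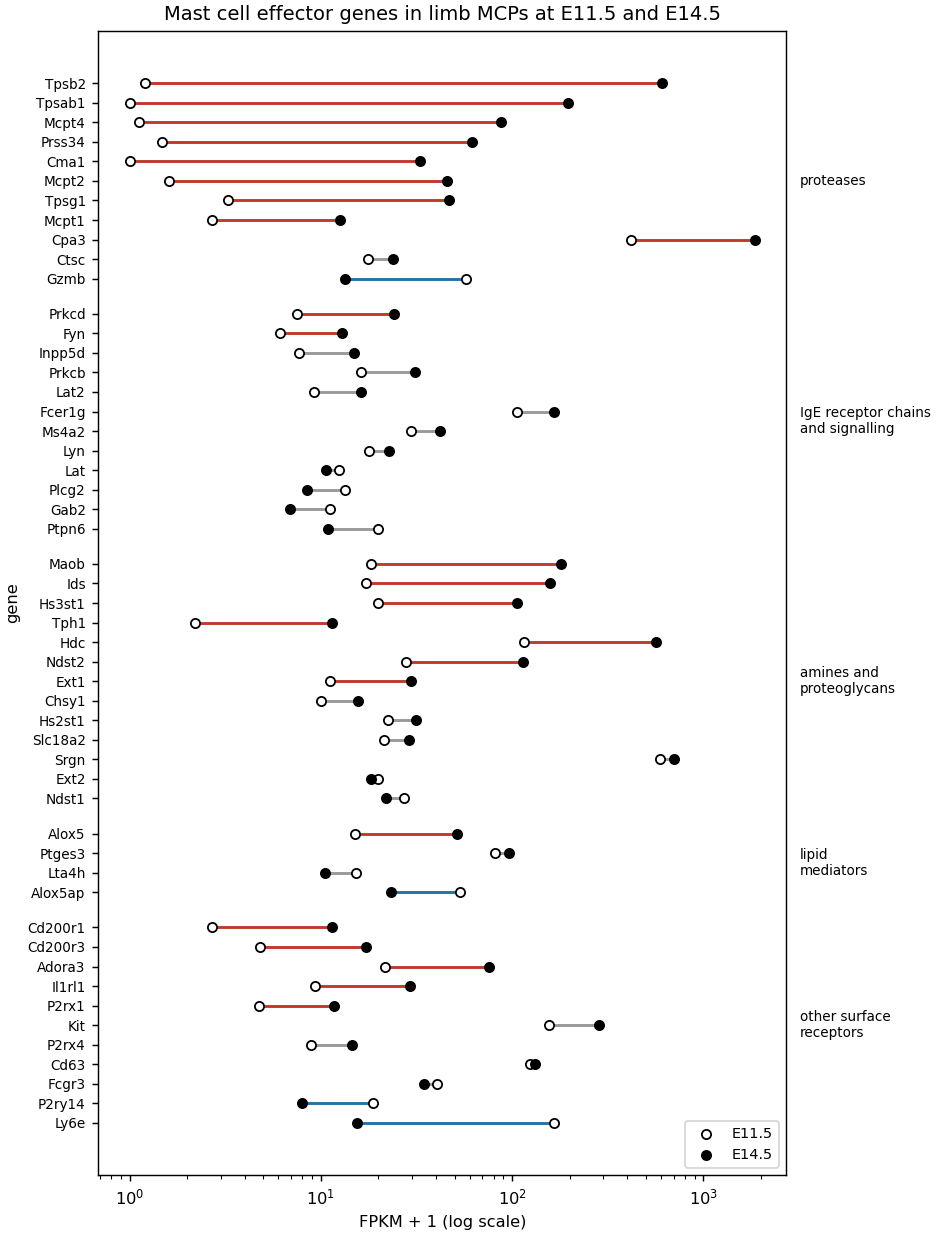
FPKM + 1 of mast cell effector genes past the filter on a log axis, with an open circle for limb MCPs at E11.5 and a filled circle for E14.5, 1 library each, joined by a line per gene. Red lines mark genes at least 2-fold higher at E14.5, blue lines genes at least 2-fold lower and grey lines the rest. Tpsb2 spans 0.21 to 605 FPKM, while Srgn and the IgE receptor chains move little.

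Enzymes for histamine and serotonin and for the glycosaminoglycan chains that bind them included several genes that rose. Of 25 listed genes 13 passed the filter, 7 were at least 2-fold higher, none was lower by that much, and the median difference was 1.41. Hdc, histidine decarboxylase, the enzyme that makes histamine, read 114 FPKM at E11.5 and 564 at E14.5 (4.95-fold). Tph1, tryptophan hydroxylase, which opens serotonin synthesis, read 1.19 and 10.5 FPKM (8.82-fold). Maob, a monoamine oxidase that breaks amines down, read 17.2 and 179 FPKM (10.4-fold). The synthesis genes Hdc and Tph1 and the breakdown gene Maob were thus all higher at the later age. Other amine enzyme genes of the list were below the filter. Of these, Ddc read 0.47 and 2.58 FPKM, Maoa was listed at 0 and then read 2.77, and Hnmt was listed at 0 at both ages. Slc18a2, the vesicular transporter that loads amines into granules, stayed within 2-fold at 20.4 and 28.0 FPKM.

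The heparan sulfate and heparin enzymes split. Ndst2, the sulfotransferase needed for heparin in mast cells, read 26.9 FPKM at E11.5 and 112 at E14.5 (4.18-fold). Its relative Ndst1, which acts on heparan sulfate in most cells, read 26.4 and 20.9 FPKM and did not pass 2-fold. Hs3st1, a 3-O-sulfotransferase, read 18.8 and 106 FPKM (5.61-fold). Ext1, a chain polymerase, read 10.1 and 28.6 FPKM, whereas its partner Ext2 read 18.9 and 17.2. Ids, the lysosomal iduronate sulfatase that degrades these chains, read 16.2 and 158 FPKM (9.72-fold). The core protein to which the chains attach, Srgn (serglycin), was high at both ages, with 592 and 700 FPKM. Some enzyme genes thus differed by 4-fold or more, while Ext2, Ndst1 and Srgn all differed by little.

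Components of the IgE receptor and its signalling were present at both ages and differed modestly. Of 24 listed genes 12 passed the filter, 2 were at least 2-fold higher and none was lower, with a median of 0.57. Ms4a2, the beta chain of the receptor, read 28.6 FPKM at E11.5 and 41.0 at E14.5. Fcer1g, the gamma chain, read 105 and 164 FPKM. Fcer1a, the chain that binds IgE, was below the filter at 1.26 and 2.19 FPKM and reached 21.9 in skin. Of the signalling genes, Prkcd, a protein kinase C, rose from 6.46 to 23.3 FPKM and Fyn, a Src-family kinase, from 5.09 to 11.9 FPKM. After scaling over all 6 libraries the difference of Fyn was 0.99, just below 2-fold. Ptpn6, the phosphatase SHP-1, read 18.8 and 9.83 FPKM, the largest negative difference of the list (-0.87) and within 2-fold.

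Other mast cell receptors showed gains and losses. Of 35 listed genes 11 passed the filter, 5 were at least 2-fold higher and 2 lower, with a median of 0.87. Members that are high only at the later age pass the filter through that age. Over the 5 members that reached 10 FPKM at both ages the median was 0.09, against 0.10 over all genes. Cd200r1, an inhibitory receptor, read 1.69 FPKM at E11.5 and 10.4 at E14.5. Its family member Cd200r3 read 3.80 and 16.2 FPKM. Il1rl1, the receptor for interleukin 33, read 8.31 and 28.2 FPKM, and Adora3, an adenosine receptor, 20.8 and 74.8. The ATP-gated channel gene P2rx1 read 3.75 and 10.7 FPKM. Ly6e, a small surface protein, fell from 165 to 14.49 FPKM, and P2ry14, a receptor for UDP-glucose, from 17.8 to 6.99. Mrgprb2 and Mrgprb1, receptors through which peptides and drugs trigger connective tissue mast cells, were still close to 0 at E14.5 (0.81 and 0.34 FPKM). In the skin library they read 145 and 71.9 FPKM. Both Mrgpr genes were thus close to 0 in both limb libraries and abundant in the skin library.

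Genes of granule transport differed less than the cargo genes. Of 26 listed genes 10 passed the filter, 3 were at least 2-fold higher and none lower, and the median difference was 0.13. Rab27b, a GTPase that docks secretory granules, read 7.80 FPKM at E11.5 and 35.7 at E14.5. Vamp2 and Vamp3, membrane fusion proteins of the SNARE family, read 2.89 and 11.7 FPKM and 10.5 and 24.9 FPKM. Vamp8, a SNARE of mast cell granules, read 29.1 and 18.8 FPKM and stayed within 2-fold. Of 43 measured lysosomal genes 21 passed the filter, with 1 higher (Gnptab, 7.83 and 20.9 FPKM) and 2 lower (Ctsl, 15.3 and 5.09 FPKM, and Man2b1, 134 and 65.1 FPKM). The median of the lysosomal genes, 0.16, was close to that of all genes.

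Leukotriene genes split at the first step of the pathway. Alox5, the 5-lipoxygenase that begins leukotriene synthesis, rose from 14.02 to 50.4 FPKM. Alox5ap, the protein that presents the substrate to it, fell from 52.1 to 22.2 FPKM. Lta4h, which makes leukotriene B4, read 14.3 and 9.5 FPKM, and Ptges3 80.32 and 95.02 FPKM. Hpgds, the synthase of prostaglandin D2, was below the filter with 2.47 and 0.92 FPKM, and Ltc4s, the synthase of leukotriene C4, read 0.22 and was listed at 0. The synthase genes of prostaglandin D2 and leukotriene C4 were thus not among those that gained. Cyp11a1, the enzyme that starts steroid synthesis from cholesterol, rose from 20.1 to 70.8 FPKM. Tspo, which has been linked to cholesterol import into mitochondria, fell from 23.3 to 10.3 FPKM.

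Immediate early genes, which are transcribed within minutes of a stimulus and encode transcription factors and feedback inhibitors, were another list with many gains. Of 34 listed genes 21 passed the filter, 13 were at least 2-fold higher, 11 of them at least 4-fold, and none was 2-fold lower. The median difference was 2.10, and the summed FPKM was 768 at E11.5 and 2778 at E14.5. Over the 11 members that reached 10 FPKM at both ages the median was 0.95. Among transcription factors, Egr1 read 123.16 FPKM at E11.5 against 532 at E14.5, and Egr3 read 1.69 and 48.1 (28.4-fold). Fosb read 4.50 and 80.7 FPKM (17.9-fold) and Fos 37.9 and 137. Jun (24.8 and 39.8 FPKM) and Junb (9.52 and 19.3 FPKM) stayed under the 2-fold limit on the log2(FPKM + 1) scale, with differences of 0.66 and 0.95. Nr4a1, an orphan nuclear receptor gene, read 104 FPKM at E14.5 and was listed at 0 in the other 5 libraries, which in this table can be a failed estimate.

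Feedback inhibitors of NF-kB and MAP kinase signalling moved with them. Tnfaip3, which encodes the ubiquitin-editing protein A20, read 6.03 FPKM at E11.5 and 130 at E14.5 (21.5-fold). Nfkbia, the inhibitor that holds NF-kB in the cytoplasm, read 1.62 and 24.2 FPKM, and Nfkbiz, an atypical member of the same family, 4.60 and 45.4. Dusp1, a phosphatase of MAP kinases, read 41.1 and 298 FPKM. Zfp36, tristetraprolin, which destabilises cytokine mRNAs, read 165 and 781 FPKM (4.74-fold). Klf6 was an exception at 42.2 and 31.7 FPKM. What lay behind the gain of the immediate early genes was not tested. Of 17 heat shock genes past the filter none was 2-fold higher, and Hspa8 was 2-fold lower (853 and 378 FPKM). Of 7 cell cycle inhibitor and p53 target genes past the filter 3 were at least 2-fold higher and 1 lower, with a median of 0.13. Over the 6 that reached 10 FPKM at both ages the median was -0.10. Gadd45a (7.93 and 50.9 FPKM), Cdkn1a (21.99 and 57.11 FPKM) and Ccng1 (14.6 and 32.3 FPKM) rose and Tob1 fell (39.3 and 10.6 FPKM).

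A pair of promoters of this group is printed because the motif search, run first, found in them response elements known from such genes.
Dusp1: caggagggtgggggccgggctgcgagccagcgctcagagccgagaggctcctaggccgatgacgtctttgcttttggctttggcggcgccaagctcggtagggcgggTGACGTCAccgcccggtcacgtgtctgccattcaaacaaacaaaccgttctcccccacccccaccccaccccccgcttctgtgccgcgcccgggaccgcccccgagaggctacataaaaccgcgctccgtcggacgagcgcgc
Nfkbia: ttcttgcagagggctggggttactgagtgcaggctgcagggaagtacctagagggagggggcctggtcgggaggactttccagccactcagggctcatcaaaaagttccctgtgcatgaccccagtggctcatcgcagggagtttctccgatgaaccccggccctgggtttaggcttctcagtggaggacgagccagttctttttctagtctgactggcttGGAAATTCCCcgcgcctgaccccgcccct
Dusp1 lies at chr17:26508473-26508722 (minus strand), and its capitals mark a CRE, TGACGTCA, 143 bases before the start. Nfkbia lies at chr12:55492648-55492897 (minus strand), and its capitals mark a kappa B element 29 bases before the start. Of the 21 genes past the filter 15 were matched in the promoter table. The kappa B element, read on both strands, was found in 6 of the 15 (40%): Fos, Fosb, Fosl2, Ier3, Nfkbia and Tnfaip3. In all promoters of that length its share was 7.25%. The CRE was found in 1 of the 15 (Dusp1) and 1.55% of all promoters, and the CArG box in 1 (Zfp36) and 1.47% of all. The GATA motif was found in 3 (20%) and 26.5% of all, and the E-box in 2 (13.3%) and 12.3% of all. All promoters here include those of genes that did not pass the filter. The gene list was chosen with earlier results of these data known, so these shares are not an independent comparison. A match describes the letters only, and binding was not measured.

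Some cytokine genes that mast cells make on activation were higher at E14.5. Of 36 measured cytokine genes 5 passed the filter, with 3 at least 2-fold higher and 1 lower. Over all 36, without the filter, the median difference was 0. Il13, a cytokine of allergic responses, read 8.69 FPKM at E11.5 and 67.9 at E14.5 (7.81-fold), and was listed at 0 in the 3 liver libraries. Tnf read 2.39 and 11.3 FPKM. Osm, oncostatin M, was listed at 0 and then read 22.6 FPKM. Ccl3, a chemokine, fell from 21.9 to 3.45 FPKM, and Tgfb1 read 50.8 and 33.6 FPKM. Il4, the partner of Il13, was below the filter at 0.51 and 4.12 FPKM. In the skin library the 3 genes that rose read less than at E14.5, with 1.70 FPKM for Il13, 3.43 for Osm and 6.53 for Tnf.

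**Figure D3:**
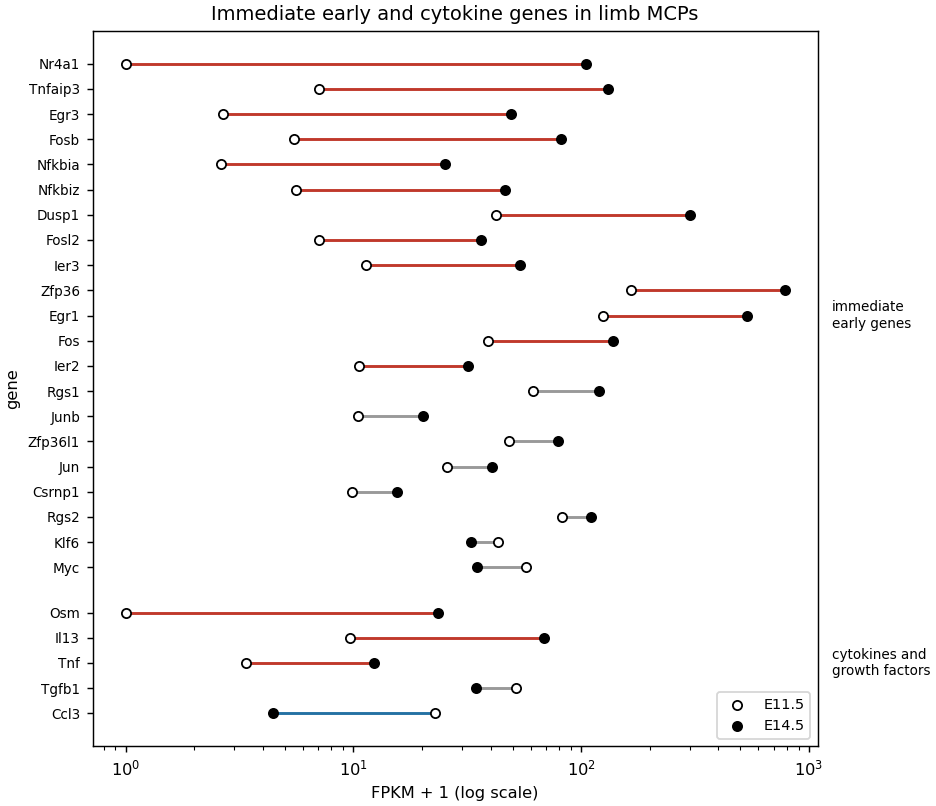
FPKM + 1 of the immediate early and cytokine genes past the filter on a log axis, with an open circle for limb MCPs at E11.5 and a filled circle for E14.5, 1 library each. Red lines mark genes at least 2-fold higher at E14.5, the blue line Ccl3, which was at least 2-fold lower, and grey lines the rest. Tnfaip3 goes from 6.03 to 130 FPKM, while Jun and Klf6 move little.

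The clearest losses over the 3 days were in genes listed as markers of neutrophils, monocytes and eosinophils. Of 26 neutrophil and monocyte genes 6 passed the filter and all 6 were at least 2-fold lower at E14.5, 5 of them at least 4-fold. All 6 passed the filter through their level at E11.5. The list summed to 553 FPKM at E11.5 against 20.2 at E14.5, and the number of members listed at 0 went from 4 to 12. Mpo, myeloperoxidase, made up most of that sum: it read 417 FPKM at E11.5, equal to Cpa3, and 1.25 at E14.5. This 334-fold lower level (counting interval 242 to 465) was the largest negative difference (-7.54). Elane, neutrophil elastase, read 15.1 and 0.10 FPKM, and Lyz2, lysozyme, 23.3 and 1.11. S100a8 and S100a9, the subunits of calprotectin, read 13.5 and 21.3 FPKM at E11.5 and were both listed at 0 at E14.5.

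Eosinophil granule genes went the same way. Of 12 listed genes 3 passed the filter, all 3 were at least 4-fold lower, having passed through their level at E11.5 alone, and the list summed to 101 FPKM at E11.5 and 2.60 at E14.5. Prg2, the major basic protein, read 54.1 FPKM at E11.5 and was listed at 0 at E14.5. Ear6, an eosinophil-associated ribonuclease, read 15.5 FPKM and was listed at 0, and Epx, eosinophil peroxidase, read 11.2 and 0.03. Granule genes read more in some liver libraries, with 8174 FPKM for Mpo in EMPs and 5617 for Prg2 in the library labelled macrophages. In liver MCPs Prg2 (40.4 FPKM), Ear6 (13.4), Epx (10.9) and Elane (14.7) read slightly less than in limb MCPs at E11.5. The chemokine receptor gene Ccr2 read less there too (8.59 FPKM). By contrast Mpo (878 FPKM), S100a9 (70.8), Lyz2 (55.1) and S100a8 (35.4) read more in liver MCPs than in limb MCPs at E11.5. Which cells carried these transcripts at E11.5 was not tested.

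Basophil genes, which overlap with those of mast cells, did not move as 1 group. Of 13 listed genes 4 passed the filter, with Prss34, Il13 and Cd200r3 higher and Gzmb lower, and all 4 were also on the mast cell or cytokine lists. Mcpt8, the defining basophil protease, stayed at 4.09 and 4.79 FPKM. Of 4 macrophage markers past the filter 2 were 2-fold lower, Apoe (57.2 and 3.23 FPKM) and Lyz2, while Cx3cr1 read 29.5 and 53.6. The whole list summed to 145 and 82.4 FPKM. Among lymphoid markers Cd3g fell from 24.8 to 3.26 FPKM and Cd7 from 23.8 to 3.20, while Cd247, a signalling chain also used by Fc receptors, read 13.99 and 23.8.

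Genes of the Ifitm and S100 families included some of the largest losses. Ifitm1, an interferon-inducible membrane protein, was among the most abundant transcripts at E11.5 with 1393 FPKM and read 45.4 at E14.5 (30.7-fold lower). Its share of the FPKM sum went from 0.995% to 0.0304%. Ifitm3 fell from 27.0 to 2.84 FPKM, and Ifitm2, from the same cluster on chromosome 7, read 917 and 526 and stayed within 2-fold. The 3 genes share at most 5.56% of their 50-base windows with each other. These 3 were the only members past the filter among 26 interferon response genes in the table, and the other 23 did not reach 10 FPKM at either age. S100a10 and S100a11, calcium-binding partners of annexins, fell from 77.6 to 10.9 and from 255 to 62.0 FPKM. Of 19 S100 and annexin genes 8 passed the filter, 4 were at least 4-fold lower and none was higher (median -1.23). That median depends on members of low level, and over those with at least 30 FPKM in either library it was 0.08. Cd24a, a glycosylphosphatidylinositol-anchored surface protein of immature blood cells, fell from 189 to 11.9 FPKM. H2-Aa, an MHC class II chain, fell from 11.4 to 1.43 FPKM, while the class I gene H2-K1 read 72.4 and 145, a difference of 0.99 that stayed just under the limit of 1.

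Adhesion and homing genes differed in both directions. Of 13 integrin and adhesion genes past the filter 1 was 2-fold higher and 3 were lower, with a median of 0.06. Itga9, the integrin alpha 9 chain, which binds tenascin and other matrix proteins, rose from 0.90 to 19.9 FPKM (22.1-fold). Itgam and Itgal, the alpha chains of the leukocyte integrins Mac-1 and LFA-1, fell from 13.04 to 0.26 and from 22.5 to 6.33 FPKM, and their common beta chain Itgb2 from 31.02 to 14.51. Itga4, which pairs with Itgb7, read 80.5 and 90.1 FPKM. The alpha 4 beta 7 pair was therefore at similar levels at both ages while the beta 2 family was lower. Of 6 chemokine receptor genes past the filter 2 rose and 3 fell. Ccr8 read 46.9 and 222 FPKM and Ccrl2 2.11 and 16.9, whereas Ccr2 read 26.8 and 9.02 and the sphingosine receptor S1pr4 10.8 and 2.58.

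Lineage transcription factors moved both ways, and 12 of those listed reached 10 FPKM at both ages. Of 41 listed factors 18 passed the filter, 5 were at least 2-fold higher and 4 lower, and the median was 0.17. Gata2, a factor required for mast cells, read 66.2 FPKM at E11.5 and 142 at E14.5. Besides Egr1, the factors Meis2 (9.12 and 26.3 FPKM), Hes1 (4.50 and 13.3 FPKM), a target of Notch signalling, and Zeb2 (11.04 and 26.34 FPKM) were also higher. Mitf, a master regulator of mast cell differentiation, was below the filter at 0.95 and 8.94 FPKM. Also below it, Nfe2 (9.17 and 0.56 FPKM), Klf1 (8.27 and 0.87 FPKM) and Lmo2 (2.53 and 0.12 FPKM) read less at the later age. Gata1 (16.3 and 12.3 FPKM), Spi1 (15.9 and 10.2 FPKM), which encodes PU.1, and Myb (49.6 and 54.5 FPKM) stayed within 2-fold. Lmo4, a LIM-only cofactor, fell from 167 to 27.1 FPKM, and Runx1, a factor needed for definitive blood formation, from 28.5 to 6.02. Ikzf2 and Bcl11a fell from 14.48 to 3.80 and from 10.9 to 4.04 FPKM. The gain of Gata2 thus stood beside a loss of Runx1 and Lmo4.

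Among other progenitor genes, Angpt1, the Tie2 ligand angiopoietin 1, fell from 22.7 to 4.45 FPKM. Cd34 and Cdk6 (47.4 and 42.9 FPKM) stayed within 2-fold. Fetal growth genes divided by kind. Of 8 past the filter 4 imprinted genes were at least 2-fold higher: Mest (3.12 and 16.2 FPKM), Peg3 (3.50 and 10.4), Igf2 (33.3 and 76.5) and Grb10 (13.5 and 31.4). Hmga2, a chromatin protein of fetal stem cells, fell from 44.16 to 19.98 FPKM, and Lin28b, which keeps blood cells in a fetal state, read 19.8 and 11.1 and stayed within 2-fold.

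Connective tissue genes appeared in the later library beside these imprinted genes. Of 33 limb mesenchyme and cartilage markers 7 passed the filter, 5 were at least 2-fold higher and 1 lower, and the summed FPKM of the list was 54.5 at E11.5 and 151 at E14.5. Just 2 of the 7 reached 10 FPKM at both ages. Members listed at 0 numbered 8 at E11.5 and none at E14.5. Col1a1 and Col1a2, the chains of type I collagen, read 0.10 and 17.6 FPKM and 0.20 and 17.9 FPKM, and Col3a1 read 0.12 and 14.4. Sparc, a matrix protein, read 4.19 and 18.8 FPKM, and Runx2 2.95 and 10.02. Mdk, midkine, fell from 30.82 to 14.48 FPKM. The highest member at E14.5 stood at 18.8 FPKM. The part of connective tissue RNA in the higher imprinted genes was not tested. Markers of other tissues were lower: muscle genes summed to 2.77 and 7.99 FPKM, endothelial genes to 11.95 and 7.27, neural genes to 3.18 and 2.84 and liver genes to 0.58 and 0.67, with no member past the filter. Hox genes summed to 5.44 and 7.72 FPKM. The Y-linked transcript Ddx3y was found at both ages (2.85 and 7.34 FPKM), so each library held RNA of male embryos. Of the epithelial list (18.7 and 1.32 FPKM) only Perp passed, at 14.2 and 0.09 FPKM.

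Red cell and megakaryocyte genes were low at both ages. Of 33 measured erythroid and heme genes 4 passed the filter, and Car1, carbonic anhydrase 1, was the 1 that fell (28.7 and 2.47 FPKM). The list summed to 163 and 100 FPKM. Among megakaryocyte genes past the filter, Rab27b rose and F2r, the thrombin receptor, fell from 44.3 to 20.2 FPKM. Iron genes moved little, with Slc25a38, a mitochondrial glycine carrier used in heme synthesis, as the 1 of 6 that fell (18.0 and 7.25 FPKM).

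Proliferation genes were mostly a little higher at the later age. Of 22 DNA replication genes past the filter 20 had a difference above 0, with 4 at least 2-fold higher, 1 lower and a median of 0.59. Gins2, a subunit of the replicative helicase, read 16.6 and 41.6 FPKM, and the helicase subunits Mcm7 and Mcm2 13.5 and 32.3 FPKM and 24.0 and 49.7 FPKM. Rfc5, a clamp loader subunit, was the exception, at 13.3 and 3.52 FPKM. Of 21 mitosis genes 19 lay above 0 with a median of 0.39, but just 1, Tacc3 (8 and 19.3 FPKM), passed 2-fold. The median over all genes past the filter was above 0 too (0.10), and their share above 0 was not counted. After median-of-ratios scaling the replication and mitosis medians were 0.53 and 0.34, against 0.04 over all genes. Mki67, the Ki-67 antigen of cycling cells, read 40.9 and 77.6 FPKM. Replication histone genes differed in the opposite direction: of 37 past the filter 15 were 2-fold lower and none higher, with a median of -0.82 and summed FPKM of 2153 and 1333. Their mRNAs mostly lack a poly(A) tail, and how the libraries were selected is not given in the sources used here.

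Housekeeping programmes showed small differences that varied in direction between lists. Ribosome biogenesis genes had a median of 0.50, with 23 of 27 above 0 and 3 at least 2-fold higher (Rrp1, 22.9 and 54.6 FPKM, Nolc1, 6.74 and 16.99, and Gar1, 5.79 and 13.5). Genes of entry into the endoplasmic reticulum and folding there, the first station of granule proteins, had a median of 0.37 with 27 of 34 above 0. Only Ddit3 of these, which encodes the stress factor CHOP, passed 2-fold (4.88 and 15.6 FPKM). The share of all genes above 0 was not counted. After median-of-ratios scaling the ribosome biogenesis and endoplasmic reticulum medians were 0.45 and 0.32, against 0.04 over all genes. Glycolysis genes changed 1 by 1: Ldha, lactate dehydrogenase, read 487 and 1053 FPKM and Hk1, a hexokinase, 4.27 and 17.7. Slc2a3, a glucose transporter, read 72.3 and 30.9 FPKM and Bnip3, a mitophagy receptor induced by low oxygen, 18.1 and 4.50. Srebf2, a regulator of cholesterol synthesis, fell from 17.4 to 6.54 FPKM. Cytokine receptor genes had a median of -0.43 over 7 genes, and Ifngr1, the interferon gamma receptor, fell from 20.5 to 7.03 FPKM.

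**Figure D4:**
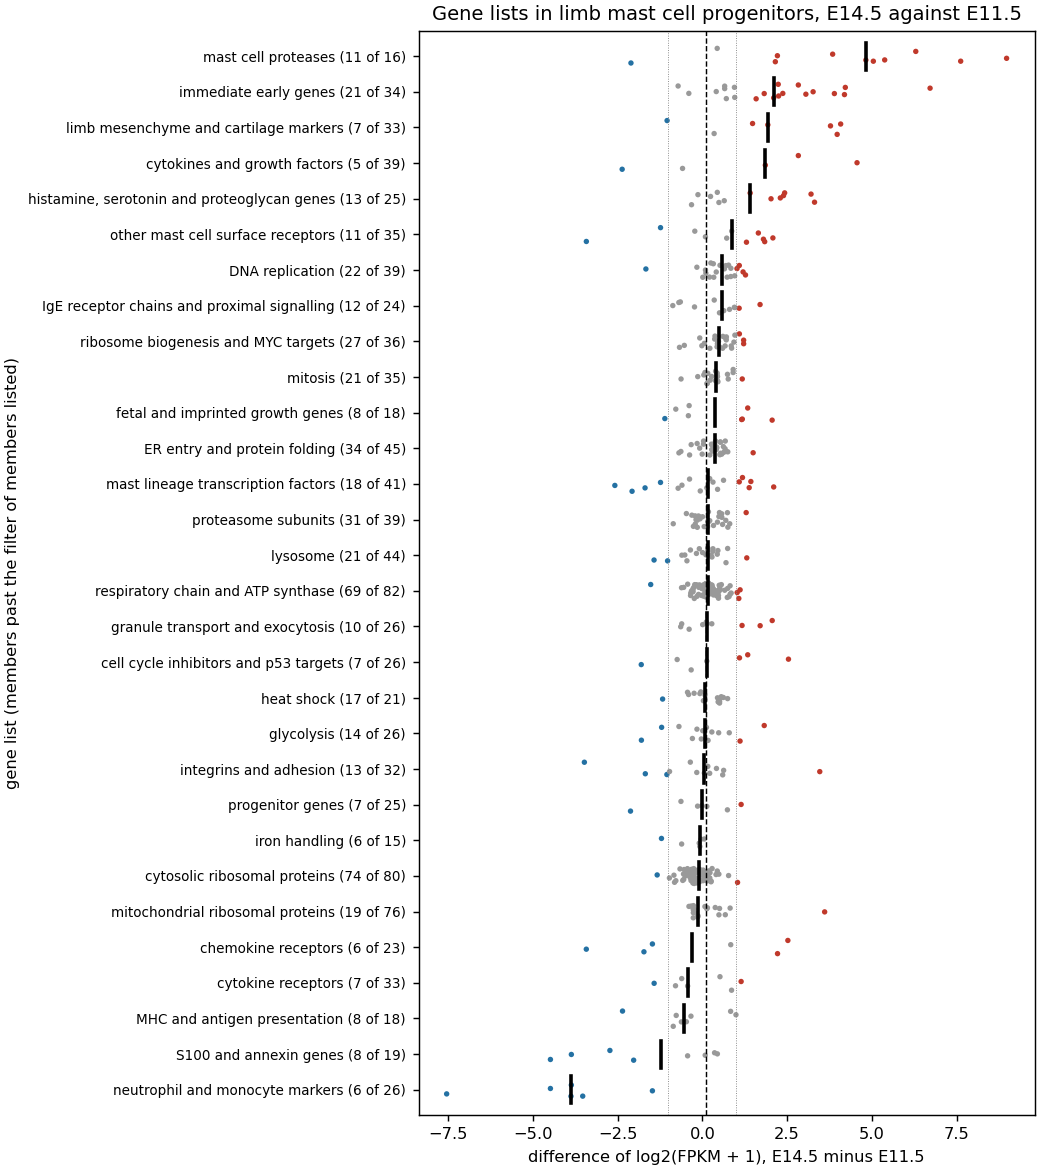
Differences of log2(FPKM + 1), E14.5 minus E11.5, for the members past the filter of gene lists with at least 5 such members, 1 point per gene, with a bar at the median of the list. Red points are at least 2-fold higher and blue points at least 2-fold lower at E14.5, and the dashed line is the median of all 2970 genes (0.10). Mast cell proteases (median 4.82) and immediate early genes (2.10) lie to the right, and neutrophil and monocyte genes (-3.87) to the left.

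Subunits of stable complexes show how far genes of 1 unit differed between these libraries, which is not a replicate error. Over 31 proteasome subunits the median was 0.16 and the range -0.86 to 1.29. Over 69 respiratory chain and ATP synthase genes the median was 0.16 and the range -1.52 to 1.11, and over 74 cytosolic ribosomal protein genes -0.11 and -1.33 to 1.04. Of these 174 genes 7 differed by 2-fold and none by 4-fold. In the smaller set of 19 mitochondrial ribosomal protein genes Mrps21 was listed at 0 at E11.5 and read 11.2 FPKM at E14.5 (difference 3.61). The lowest difference of this set was -0.40. A listed 0 in 1 library, as for Tpsab1, Cma1, Osm or Prg2, was thus seen for a gene of general function too. The differences of Tpsb2, Mcpt4, Mpo, Ifitm1 and Tnfaip3, picked from the largest of these libraries, lay outside the range of the first 3 complexes. Those of Kit (0.87), Ms4a2 (0.50) and Srgn (0.24) lay inside it. These ranges describe other genes and do not test any difference.

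The other mast cell lineage libraries were read for the same genes. Of the 71 genes at least 4-fold higher at E14.5, 44 also read 10 FPKM or more in the E16.5 skin library, with a median of 18.2 there, and 17 did so in liver MCPs, with a median of 2.72. Of the 52 lower genes 3 reached 10 FPKM in skin, with a median of 0.22, and 37 did in liver MCPs, with a median of 16.1. The genes were picked by their limb levels. How many of all genes past the filter reached 10 FPKM in skin or liver MCPs was not counted, so no excess is read from these counts. Skin differed from limb in tissue and age at once, so these values stand side by side only. Cpa3 read 172 FPKM in liver MCPs and 13494 in skin, Mcpt4 was listed at 0 and read 412, and Tpsb2 was listed at 0 and read 815. Other genes that were higher at E14.5 read less in skin. Mcpt2 read 4.60 and Mcpt1 0.11 FPKM in skin, Prss34 12.1, Ccr8 12.9 and Igf2 0.40. Gata2 was listed at 0 in skin, which in this table does not show absence.

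**Figure D5:**
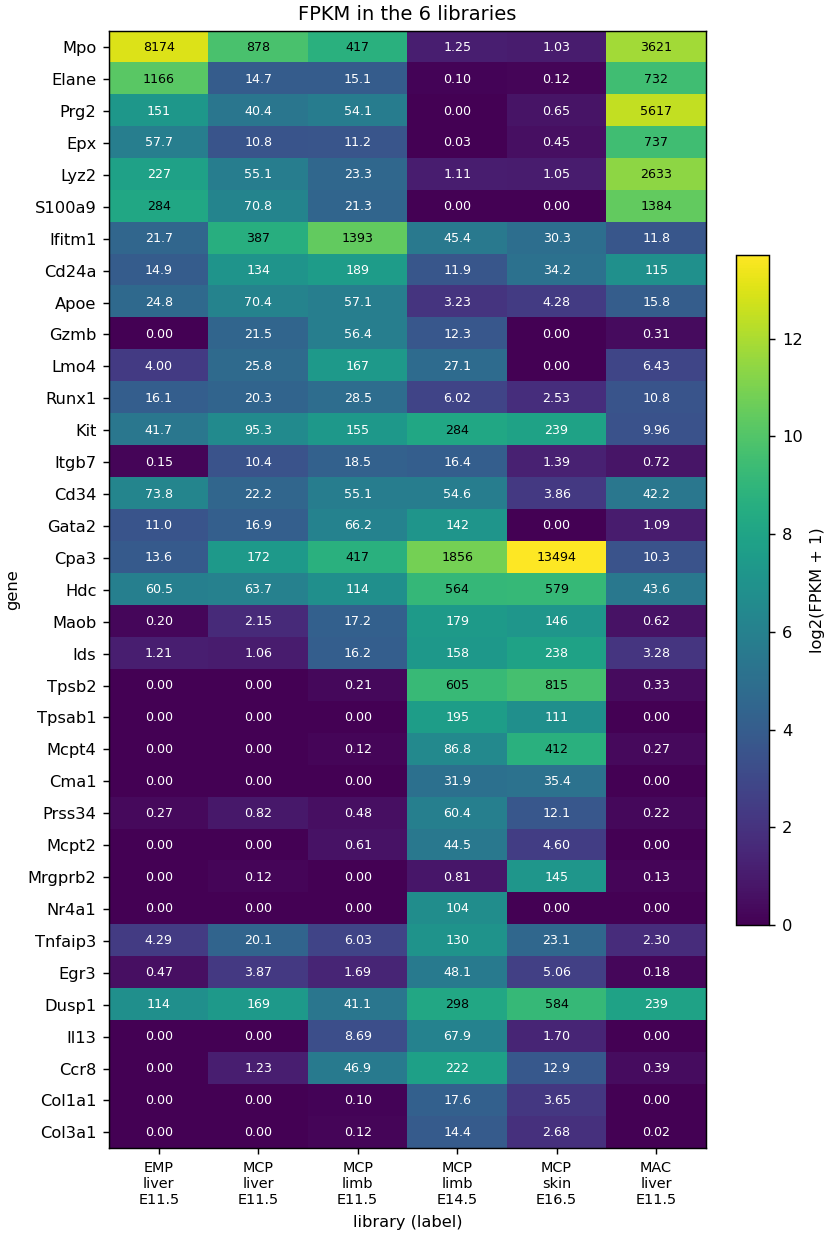
FPKM of 35 genes (rows) in the 6 libraries of the series (columns), where colour gives log2(FPKM + 1) and the printed numbers are FPKM. Mpo reads 8174 in liver EMPs and 1.25 in limb MCPs at E14.5. Proteases differ in both directions between limb MCPs at E14.5 and skin, with 605 and 815 for Tpsb2 and 44.5 and 4.60 for Mcpt2.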

How the data were processed

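RNA-seq of cells sorted from mouse embryos gave 6 libraries, of which limb MCPs at E11.5 and E14.5 were compared. The authors deposited FPKM values in a single table. Per the submitters' processing notes, Bowtie2, RSEM and mm10 (GRCm38) were used, with versions not given in the sources used here. TRIzol extraction and Illumina HiSeq sequencing are stated in the labels' protocols. Of 17913 rows 4 with a repeated name were removed. Of the 17909 names 22 had been turned into dates and were never named, and 17370 (97.0%) were found in GENCODE M21 (GRCm38).

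Differences were log2(FPKM + 1) at E14.5 minus E11.5 among genes that reached an FPKM of 10 in 1 of the limb libraries or both, called at 4-fold, or at 2-fold for lists. The verbs rose and fell stand for at least 2-fold, and every 2-fold or 4-fold call is made on the log2(FPKM + 1) scale. Folds divide the FPKM values themselves and are omitted against a listed 0. Median-of-ratios scaling used 7614 genes that reached an FPKM of 1 in both limb libraries. Depth was estimated from FPKM steps over 1409 genes with a single transcript. Of usable values 78.1% (E11.5) and 82.2% (E14.5) then lay within 0.2 of a whole fragment, against 40% by chance for a depth fixed beforehand. The depth and a length offset were picked by this excess, so the shares are not an independent check. The method was also run on simulated data, with the result not given here. A listed 0 allows an FPKM of up to 0.171 and 0.131 on 2 kb (3 fragments). Counting intervals (95%) rest on these estimates and cover counting error only.

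The members and the 47 gene lists were chosen with earlier results of these data known. Named by rule were the 15 largest differences in each direction, with predicted genes, ribosomal proteins, histones and small RNAs left out. The rule also named the 3 largest of each list. Of the protease, IgE receptor, amine and lipid mediator lists it named all members past the filter. It further named Kit, Itgb7, Csf1r and Cd34, and the most abundant member of each list of another cell type. Further members were named after their values had been seen. Some genes covered by this rule are not reported here. Alternatives were pseudocounts of 0.1 and 5, no filter, a filter of 30, other scalings, and listed zeros left out. Python 3.11.15, numpy 2.4.6, pandas 2.3.3 and scipy 1.17.1 were used.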

Additional observations from a re-analysis of the deposited data

How the results depend on the processing

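Counts of genes past a fold depended on how low values were treated, more than on scaling. The counts at least 4-fold higher and lower, 71 and 52 as reported, were 43 and 22 with a pseudocount of 5, 172 and 127 with no filter, and 43 and 16 with a filter of 30 FPKM. At 2-fold, 250 and 185 as reported, they were 149 and 115, 937 and 772, and 94 and 59. Lower genes made up 42.3% of the 4-fold calls as reported and 27.1% with the filter of 30 FPKM. All other counts were within 1.5 times. At 2-fold the excess of higher genes was lost with scaling over 6 libraries (179 and 189) and rescaling to equal sums (201 and 203). The median over all genes, 0.10, was -0.00228 after rescaling to equal sums. No named gene reversed under any alternative that kept it past the filter, and 15 of 150 dropped below their fold with a pseudocount of 5. Of the list medians 1 reversed: the S100 and annexin genes went from -1.23 to 0.0838 with a filter of 30 FPKM. The median of the histamine, serotonin and proteoglycan genes was 1.41 as reported, 0.93 with scaling over 6 libraries and 0.94 after rescaling to equal sums. That of the immediate early genes was 0.95 without a filter, and that of the cytokine genes 0 without a filter and 0.64 without genes listed at 0. No paired analysis was possible because each age had 1 library. No replicate could be left out for the same reason. At the estimated depth, ratios of genes near 0 at E11.5, such as Tpsb2, Mcpt4 and Col1a1, are the least precise.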
